A study of Mus musculus with 6 samples.

Results

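The 3' ends of protein-coding genes were examined as methylated regions in mouse primary mesangial cells. A MeDIP-seq peak was taken as a 3' end peak when its summit lay in the 3' UTR, or within 2000 bp downstream of the end, of a protein-coding transcript on chromosomes 1 to 19. A summit inside any coding sequence, or within 2000 bp of a protein-coding transcript start, was left out. Joined wherever they overlapped by at least 1 bp, the member peaks gave 7462 regions. When all peaks of the 6 samples were joined in the same way, 7461 of 170444 regions held at least 1 member peak, and these 7461 are the 3' end regions described here. Of them, 3152 held 3' UTR members only, 4217 held downstream members only and 92 held both.

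The series compares 3 control samples with 3 samples given TGF-β1 at 10 ng/ml for 72 h, all grown at 25.5 mM glucose, from which genomic DNA was enriched for methylated cytosine and sequenced. The mesangial cells came from primary culture, the mouse strain was not given in the sources used here, and the methods speak of biological replicates without saying whether these were separate cultures, so p-values measure only the spread between these samples. No expression value was analysed here, so the cell type was taken from the labels without a check of marker genes. Peak calling used 9407103 to 11494356 reads per control sample and 12634300 to 13291419 reads per TGF-β1-treated sample. Every treated sample was thus deeper than every control sample, so in any count of peaks the treatment cannot be told apart from the depth.

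Mesangial cells are the contractile cells that hold the capillary loops of the kidney glomerulus together, and TGF-β1 is the cytokine that drives them to deposit extracellular matrix. The 3' UTR is the part of an mRNA between the stop codon and the poly(A) tail. It carries the binding sites of microRNAs, and cleavage and polyadenylation at its border decide where the transcript ends. Past that border, RNA polymerase II continues for some distance before it is released. In mammalian DNA, cytosine methylation is found mostly at CpG dinucleotides, and transcribed gene bodies are usually methylated while CpG-rich promoters usually are not. MeDIP uses an antibody against methylated cytosine, so a peak marks a stretch with many methylated cytosines, and its height depends on the number of CpGs in the fragment as well as on their methylation.

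The following 30-base windows, read from the NCBIM37 (mm9) genome on the forward strand and centred on the summit, show what the DNA under the peaks looked like. CpG dinucleotides are in capitals. The first pair are the downstream regions with the smallest p among those higher after TGF-β1, the next pair were called in the samples of 1 group only, and the last pair are among the highest of all 3' end peaks.
Ugt1a10, chr1:90114629-90114658: actggagtcaagCGtaagggaatgctgtct
2310043J07Rik, chr5:136541338-136541367: aacCGtaacctagagctCGggaggttgaCG
Gpa33, chr1:168097141-168097170: acacattcccctctgcctctgcctcCGaga
Ern1, chr11:106318247-106318276: cctgCGgctctctccactctctacctgctg
Prl3d3, chr13:27256410-27256439: aggaaaacacaggtgatggaaatgaacaaa
Gm16432, chr1:180104523-180104552: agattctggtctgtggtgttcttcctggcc
The window of 2310043J07Rik held 3 CpGs, those of Ugt1a10, Gpa33 and Ern1 held 1 each, and those of Prl3d3 and Gm16432 held 0. The Gm16432 window occurred 1384 times on chromosomes 1 to 19 in exact copies on either strand, whereas the other 5 windows shown occurred 1 time each. Windows of Gm10801 and A530032D15Rik, both lower after TGF-β1, are not shown. They held 0 CpGs and occurred 4 and 2 times. The Glrx window, also not shown, held 2 CpGs and occurred 2 times.

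The first question was how densely gene 3' ends were covered by peaks compared with other gene elements. The 3' ends took up 66.2 Mb, which is 2.76% of the sequence that could be classified, and held 3269, 3624 and 4108 peaks in control replicates 1, 2 and 3. The TGF-β1-treated replicates held 4067, 3994 and 4444. Over the 6 samples, there were 59.2 ± 6.23 peaks per Mb at 3' ends (SD, n = 6), against 29.6 ± 2.53 in intergenic sequence, 46.0 ± 4.17 in introns, 47.2 ± 4.55 within 2000 bp of a transcript start and 227 ± 41.8 in coding sequence. The density at 3' ends was therefore 1.99 ± 0.0536 times that of intergenic sequence and 1.29 ± 0.0282 times that of introns. It was only 0.266 ± 0.0400 times that of coding sequence. Each of these differences had the same direction in 6 of 6 samples (exact two-sided sign-flip permutation test, p = 0.0312 for each, the smallest that 6 samples allow, and adjusted p = 0.0312 over 10 density contrasts).

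Within the 3' ends, the 3' UTR carried more peaks than the flank behind it. Per Mb, there were 74.2 ± 8.31 peaks in 3' UTRs and 51.3 ± 5.19 in the 2000 bp downstream (SD, n = 6), a ratio of 1.44 ± 0.0414 that was above 1 in 6 of 6 samples (exact sign-flip permutation test, p = 0.0312, adjusted p = 0.0312). The elements differ in how many CpGs they hold, with 1.11 per 100 bp of 3' UTR, 0.939 per 100 bp downstream, 0.849 in introns, 0.721 in intergenic sequence, 1.87 around transcript starts and 2.94 in coding sequence. Counted per 1000 CpGs of the element, 3' ends held 5.93 ± 0.624 peaks, coding sequence 7.75 ± 1.42, introns 5.42 ± 0.491, intergenic sequence 4.11 ± 0.351 and the surroundings of transcript starts 2.53 ± 0.244. On that scale the 3' ends stood 2.35 ± 0.0508 times above transcript starts, and the gap to introns shrank to 1.09 ± 0.0240 times, with the same order in 6 of 6 samples (exact sign-flip permutation test, p = 0.0312 each). The 3' UTR remained above the downstream flank per CpG, at 6.68 ± 0.749 against 5.46 ± 0.553 peaks per 1000 CpGs.

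**Figure D1:**
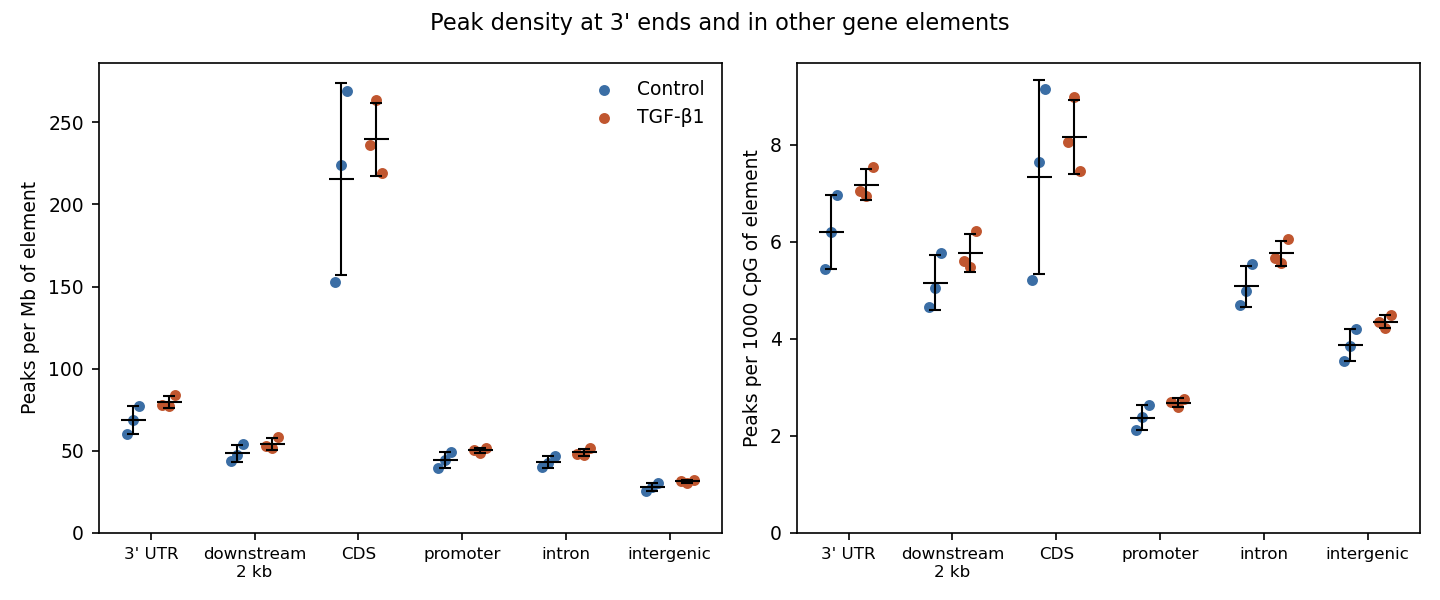
Peaks per Mb (left) and peaks per 1000 CpGs (right) of each gene element, with 1 point per sample, control in blue and TGF-β1-treated in orange, and bars for the group mean and SD. The 3' UTR points lie above the downstream points in both panels, and transcript starts (promoter) are the lowest element per CpG, at 2.53 on average.

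In windows of 1000 bp, the peaks thinned out in steps across the end of the transcript. In the last 1000 bp of 3' UTR before the annotated end, there were 71.4 ± 7.89 summits per Mb (SD, n = 6). In the first 1000 bp past the end there were 58.2 ± 5.58, and between 1000 and 2000 bp past it 47.9 ± 5.10. The first step was a ratio of 1.23 ± 0.0319 and the second a ratio of 1.21 ± 0.0233, each in the same direction in 6 of 6 samples (exact two-sided sign-flip permutation test, p = 0.0312, adjusted p = 0.0312 over the 2 steps). The decline was not smooth at the end itself. In the 200 bp just before the end, control samples had 52.5 ± 5.10 summits per Mb, below the 73.6 ± 7.30 of the preceding 200 bp, and TGF-β1-treated samples had 62.4 ± 7.41 against 88.2 ± 6.38 (SD, n = 3 each). In the first 200 bp past the end the means were higher again, at 66.1 ± 10.5 in control and 73.1 ± 3.00 in treated samples (SD, n = 3 each). The treated group was above the control group in mean in each of the 3 windows of 1000 bp, and was also the deeper one.

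**Figure D2:**
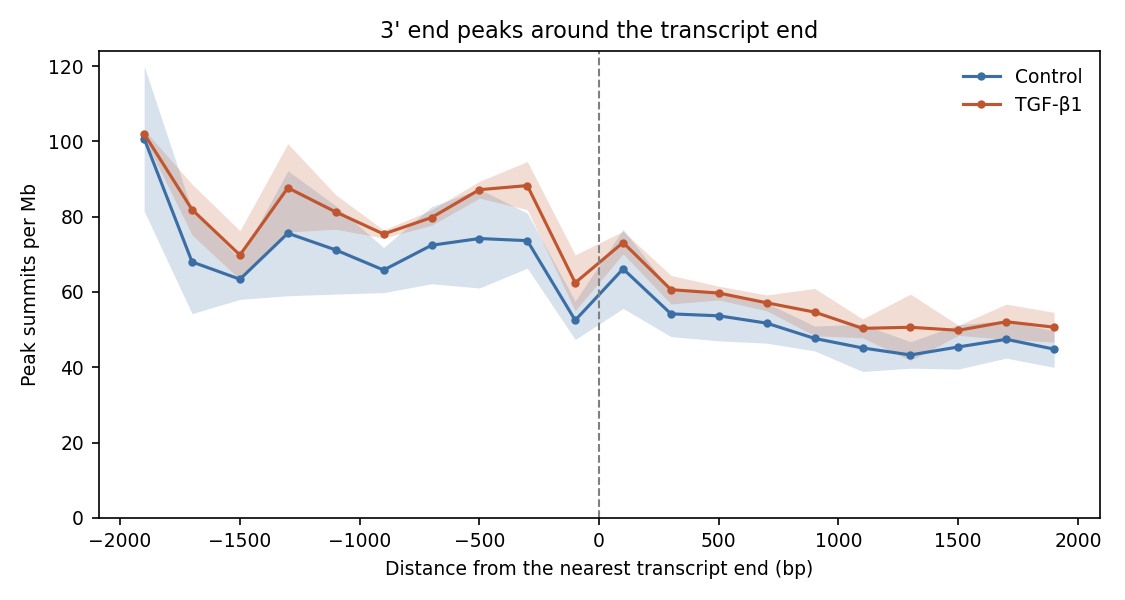
Summits of 3' end peaks per Mb of 3' end sequence in bins of 200 bp along the distance from the nearest transcript end (negative values lie before the end), as the mean of 3 samples per group with the SD as a band. The density dips in the last bin before the end, from 73.6 to 52.5 summits per Mb in control samples. It rises to 66.1 in the first bin past the end and falls beyond that bin.

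Enrichment and base composition were not used to choose the 3' end peaks and were compared with those of other peaks. Their median fold enrichment over the local background was 6.00 ± 0.186 (SD, n = 6), with a difference of -0.290 from peaks in coding sequence, -0.306 from intergenic peaks, -0.0816 from peaks in introns and -0.0764 from peaks at transcript starts. Each was lower in 6 of 6 samples (exact sign-flip permutation test, p = 0.0312, adjusted p = 0.0481 over 20 contrasts of enrichment, length and composition). With 2.64 ± 0.0867 CpGs per 100 bp, they were poorer in CpG than peaks in coding sequence, which had 3.13 ± 0.124, and richer than peaks in introns, which had 2.44 ± 0.0459, each in 6 of 6 samples (adjusted p = 0.0481, exact sign-flip permutation test). Intergenic peaks had 2.66 ± 0.0626 CpGs per 100 bp, and the difference of -0.0155 ± 0.0312 went in both directions among samples (exact sign-flip permutation test, p = 0.25, adjusted p = 0.263). The 3' end sequence as a whole held 0.998 CpGs per 100 bp, below the content of its peaks in every sample.

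Peaks in the 3' UTR held 2.79 ± 0.0745 CpGs per 100 bp, and downstream peaks held 2.52 ± 0.0845, higher in the 3' UTR in 6 of 6 samples (exact sign-flip permutation test, p = 0.0312, adjusted p = 0.0481). Their median fold enrichment was close, with a difference of 0.0232 ± 0.0291 (p = 0.25, adjusted p = 0.263, same exact test). Between 10 and 15 of a sample's 3' end peaks contained no CpG at all, of which at most 1 lay in a 3' UTR.

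Genes whose ends are rich in CpG were more often covered. All genes were split into 5 groups by the CpG content of the 1000 bp on either side of their outermost complete transcript end. In the group with the fewest CpGs, which had a median of 0.450 per 100 bp, 55 of 4547 genes (1.21%) had a 3' end region with its summit in that window. The share was 6.81%, 13.5% and 23.6% in the next 3 groups. In the group with the most, which had a median of 2.15 CpGs per 100 bp, it was 24.6% (1025 of 4165 genes). Regions found in all 6 samples followed the same order, from 0.0660% to 7.23% of genes. These shares describe genes and have no replicate error.

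In all, 5768 of 21281 protein-coding genes by symbol (27.1%) had at least 1 region at a 3' end. Of these, 4420 had 1 region, 1348 had 2 or more and 294 had 3 or more. The highest number was 6, in Hdhd2, Wdfy3 and Zbtb20. Of this trio the rule for named genes takes Hdhd2, a gene for a hydrolase-like protein, and Wdfy3, which encodes an adaptor for the autophagic removal of protein aggregates. Regions beside a gene with several annotated ends need not lie at the end that mesangial cells use.

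At Wdfy3, 2 of the 6 regions were called in all 6 samples. The region in the 3' UTR, 251 bp before the end (chr5:102262389-102262840), had pileups of 21, 30 and 36 reads in control samples and 35, 38 and 38 in TGF-β1-treated samples. A pileup here counts the extended reads that cover a summit and is not scaled to depth. The region 852 bp downstream of a shorter transcript (chr5:102357248-102357686) had 56, 40 and 30 reads against 37, 33 and 55. The groups overlapped in both, and the fitted log2 fold changes were 0.16 ± 0.20 and -0.22 ± 0.22 (SE; limma, adjusted p = 0.999 each). At Hdhd2 no region was called in more than 3 samples, and 4 of the 6 were called in 1 sample only, with pileups of 14 to 21 reads.

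The next question was how the regions repeated across samples. Of the 7461 regions, 1770 (23.7%) were called throughout the 6 samples and 1925 (25.8%) in 1 sample only. Over all 166838 regions of chromosomes 1 to 19 these shares were 24.5% and 27.3%. The 3' UTR regions were called in all 6 samples in 24.3% of cases and the downstream regions in 22.9%. Regions called in more samples were higher and held more CpGs. Those called in 1 sample had a median of 7 CpGs and 17 reads, and those called in all 6 had 13 CpGs and 26.8 reads, while the median CpGs per 100 bp moved only from 2.38 to 2.61. Joining the peaks of more samples also widens a region, with median lengths of 296 bp and 487 bp. Calling itself depends on height, so neither trend is independent of the number of samples called.

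**Figure D3:**
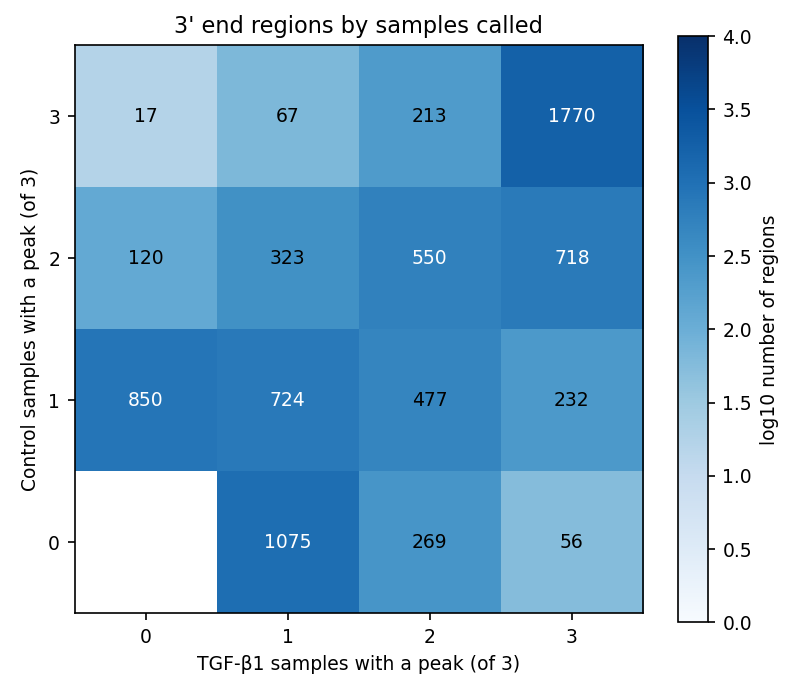
Number of 3' end regions by how many of the 3 TGF-β1 samples (x axis) and of the 3 control samples (y axis) had a peak there, with colour on a log10 scale. The 1770 regions called in every sample stand in the upper right corner, and the 56 and 17 regions called in 1 complete group only stand in the lower right and upper left corners.

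A region called in all samples of 1 group and none of the other was rare. There were 56 such regions (0.751%) for TGF-β1, where the share over all regions of chromosomes 1 to 19 was 0.946%. For control there were 17 (0.228%), where the share over all regions was 0.233%. The 3' ends were thus near the background in both directions, and the group with more such regions was the deeper one. With a difference of at least 2 samples as the rule, 557 regions (7.47%) leaned to TGF-β1 and 204 (2.73%) to control, against 7.84% and 3.13% of all regions.

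The 56 regions found in TGF-β1-treated samples only had mean pileups of 13 to 31.7 reads with a median of 19.3, and the 17 found in control samples only had 13 to 21.3 reads with a median of 17. Timp2, an inhibitor of the matrix metalloproteinases, led the first set. Its region in the 3' UTR (chr11:118163042-118163403, 804 bp before the end, 11 CpGs) had 31, 28 and 36 reads in the treated samples and no peak in the control samples. Timp2 also had another 3' UTR region, 91 bp before the end, called in 2 control and 3 treated samples with 22 and 26 reads against 41, 25 and 29. A further 3' UTR region of Timp2 (chr11:118163855-118164198) was called in 1 control sample (32 reads) and 1 treated sample (26 reads). Where no peak is listed, the reads lay below the calling threshold and their number is not known.

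Gpa33, a cell surface antigen of gut epithelium, followed with a region 514 bp downstream (chr1:168097011-168097344) at 27, 29 and 30 reads in treated samples. Arhgef7, an exchange factor for small GTPases, had a 3' UTR region (chr8:11825486-11825799) at 27, 23 and 35 reads. Snx18, a sorting nexin of endosomal membranes, had a 3' UTR region (chr13:114383014-114383380) at 23, 27 and 33 reads. None of these 3 regions had a peak in a control sample.

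On the control side the pileups were lower. The region of 5930434B04Rik (chr2:26871363-26871705) had 21, 21 and 22 reads in control samples. A region 1609 bp downstream of a short transcript of Ern1, whose product senses unfolded protein in the endoplasmic reticulum (chr11:106318063-106318458), had 22, 16 and 21. Glrx, for the thiol reductase glutaredoxin, had one 603 bp downstream (chr13:75988017-75988442) at 18, 22 and 18 reads, and Tspan5, a tetraspanin, had one in its 3' UTR (chr3:138566911-138567316) at 20, 17 and 20. None of these 4 had a peak in a treated sample. The lowest pileup called anywhere in a sample was 8 reads in control samples and 9 or 10 in treated samples.

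For the 1770 regions with a peak in every sample, the heights themselves were compared between groups. The test was limma on log2 of the highest pileup, centred on each sample's median and fitted over all 41744 regions called in 6 samples. No 3' end region passed the study's thresholds (adjusted p under 0.01 with a log2 fold change past 2 in size), and the same held for all regions (0 of 41744, 0%). These thresholds are the ones stated in the study's methods. In its list of genes changed in both methylation and expression, all methylation fold changes except that of Zbtb4 were below 2 in size. The count of 0 therefore cannot be set against the study's own calls. The smallest adjusted p at a 3' end was 0.999. Without adjustment, 29 regions were higher and 32 lower after TGF-β1 at p below 0.05, which is 1.64% and 1.81%, beside 1.96% and 2.22% of all regions. The median log2 fold change was 0.00, and 1750 of the 1770 regions (98.9%) lay within 0.5 of 0 on the log2 scale. Centring on the sample medians holds such a median near 0, so a shift shared by most regions could not show here.

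The depth limits what this comparison could show. A 4-fold fall in a region can be seen only if the fallen samples still pass the threshold. The lowest pileup called in a sample was as high as 10 reads, and a given region can need more. The higher group then needs at least about 40 reads. Of the 1770 regions, 268 (15.1%) reached that height, and fewer may have been able to show such a fall. The log2 pileups of any 2 samples correlated over these regions at r = 0.612 to 0.776, a description across regions that share libraries.

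**Figure D4:**
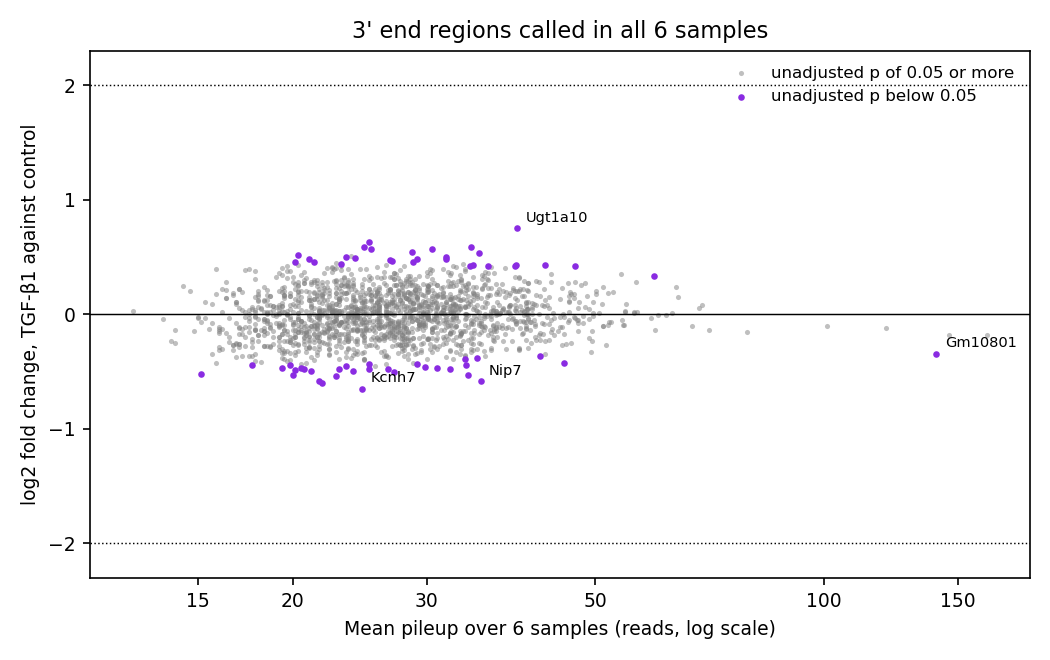
Fitted log2 fold change (TGF-β1 against control) of each of the 1770 shared 3' end regions against its mean pileup in reads on a log axis, with purple for an unadjusted p below 0.05 and dotted lines at the study's threshold of 2 in either direction. All points lie between -0.65 and 0.75, far inside the dotted lines.

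The region with the smallest p lay in the Ugt1a cluster, whose genes encode enzymes that conjugate glucuronic acid to bilirubin and drugs. It had 25, 25 and 30 reads in control samples and 48, 55 and 54 in TGF-β1-treated samples, so every treated sample was above every control sample. The log2 fold change was 0.75 ± 0.18 (SE; limma, unadjusted p = 0.000181, adjusted p = 0.999). Not every peak joined into this region was a 3' end peak. Among the 1425 shared regions in which every peak was one, the widest log2 fold change was 0.65 in size. The region (chr1:90114433-90114990, 10 CpGs) sat 1711 bp downstream of short transcripts of Ugt1a10, Ugt1a6a and Ugt1a7c, and at the same time in an intron or non-coding exon of longer Ugt1a transcripts, so it is at the end of some annotated transcripts and inside others.

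A region 1156 bp downstream of 2310043J07Rik (chr5:136541128-136541609, 17 CpGs) had 16, 17 and 21 reads against 30, 27 and 38, also without overlap, with a log2 fold change of 0.59 ± 0.21 (SE; limma, adjusted p = 0.999). In the 3' UTR of Gm885 (chr11:106622756-106623404) the pileups were 14, 30 and 34 against 43, 38 and 47. At 2310035K24Rik (chr2:131038395-131039170) they were 15, 21 and 33 against 41, 39 and 34. In the last of these the groups overlap on the centred log2 scale of the test.

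Among the regions with lower values after TGF-β1, Gm10801 (chr2:98505070-98505424) had 158, 138 and 143 reads in control and 131, 126 and 147 in treated samples. Its fitted log2 fold change was -0.34 ± 0.11 (SE; limma, adjusted p = 0.999), and its 30-base summit window occurred 4 times on chromosomes 1 to 19. Nip7, a factor of ribosome assembly, had 39, 33 and 47 reads against 24, 34 and 35 in its 3' UTR (chr8:109582920-109583378). Kcnh7, a voltage-gated potassium channel, had 27, 29 and 28 against 28, 17 and 19 (chr2:62534518-62534949). A530032D15Rik had 21, 24 and 28 against 22, 18 and 17 downstream (chr1:85094508-85095095), with a single CpG in 588 bp. The raw pileups of the groups overlapped in all 4 of these regions and separated only after centring on the sample medians.

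**Figure D5:**
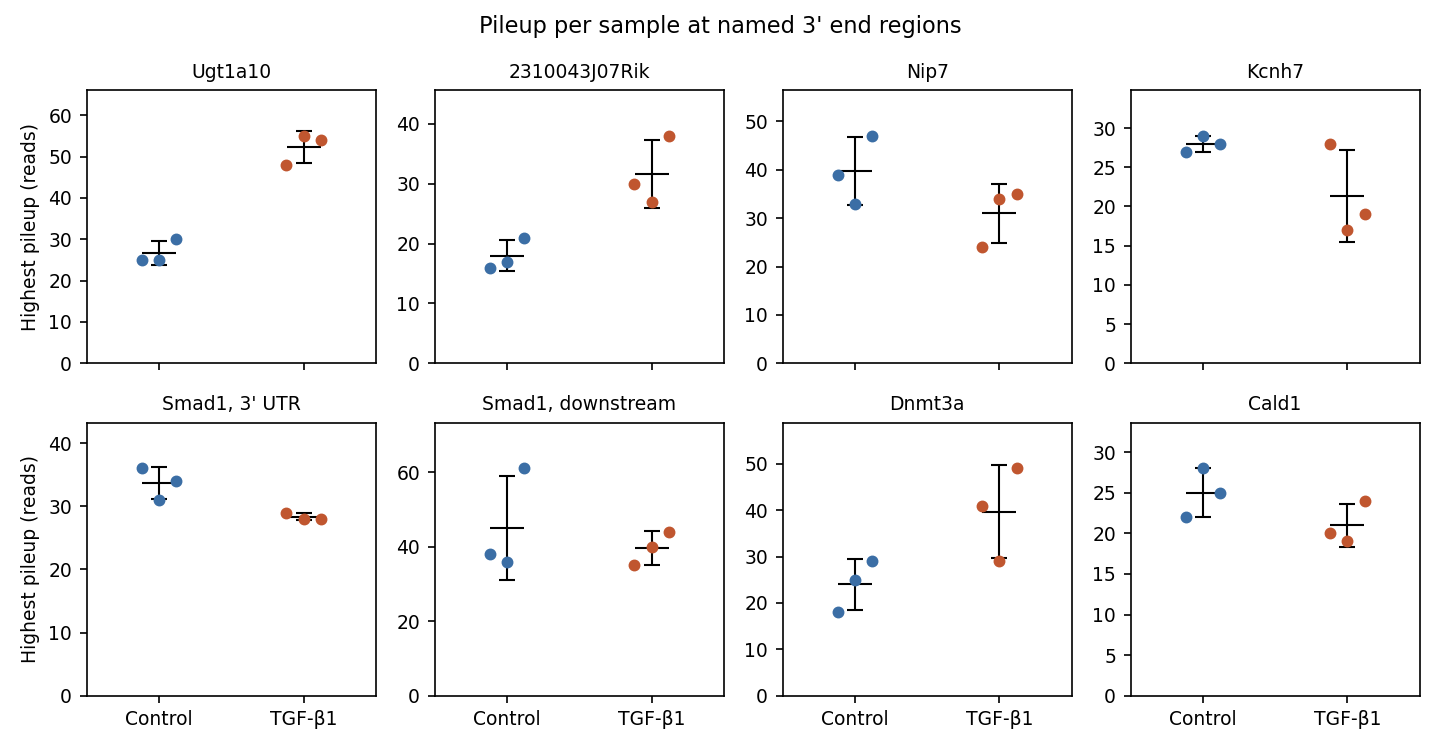
Highest pileup in reads at 8 named 3' end regions, with 1 point per sample, control in blue and TGF-β1-treated in orange, and bars for the mean and SD of 3 samples. Ugt1a10 separates most widely, with 25 to 30 reads in control and 48 to 55 in treated samples, and no region passed adjustment over 41744 regions (adjusted p = 0.999, limma).

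The tallest 3' end regions were not among the listed genes. The highest per 1000000 reads lay 1965 bp downstream of Prl3d3, a placental hormone of the prolactin family (chr13:27256179-27256670). It had 164, 155 and 165 reads in control and 159, 157 and 183 in treated samples, or 14.2 per 1000000 reads on average. The 3' UTR of Lars2, the mitochondrial leucyl-tRNA synthetase (chr9:123370860-123371365), followed with 144, 130 and 158 against 131, 153 and 161. Gm10801 came next and then Gm16432 (chr1:180104223-180104856, 31 CpGs), with 109, 103 and 138 against 134, 117 and 122. The log2 fold changes of the 4 ran from -0.34 to -0.12 (limma, adjusted p = 0.999 each).

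These heights were exceptional, since the median shared region had 26.8 reads and the upper quartile began at 32.5. Of the 20 regions with the highest pileup per 1000000 reads, 6 had a summit window with 2 or more exact copies on chromosomes 1 to 19, and 3 had 10 or more. Of 20 regions around the median, 2 had 2 or more copies. The part of repeated sequence in the heights was not tested. Heights also rose with CpG content. In the lowest of 5 groups by CpG density (a median of 1.71 CpGs per 100 bp) the median pileup was 2.1 per 1000000 reads, and in the highest (3.70 CpGs per 100 bp) it was 2.58. The median log2 fold change was between -0.04 and 0.02 in each of these 5 groups.

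Values summed over a sample gave 1 number per library for the comparison of groups. Control samples had 3667 ± 421 and TGF-β1-treated samples 4168 ± 242 peaks (SD, n = 3 each), a difference of 501 peaks above either SD, with overlapping groups (exact two-sided permutation test, p = 0.3, adjusted p = 0.36 over 6 results per sample, where 3 samples against 3 cannot go below 0.1). As a share of all peaks on chromosomes 1 to 19, they made up 4.12% ± 0.0508 in control and 4.15% ± 0.127 in treated samples (exact permutation test, p = 1). The 3' UTR took 42.9% ± 0.621 of them in control and 43.7% ± 0.565 in treated samples (p = 0.2, adjusted p = 0.36, same exact test).

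The median pileup of the shared regions was 24.7 ± 2.89 reads in control and 28.7 ± 2.08 in treated samples (exact permutation test, p = 0.3). Per 1000000 reads it turned to 2.37 ± 0.122 against 2.22 ± 0.10 (p = 0.2, same exact test). Only the median fold enrichment separated the groups, with 6.20, 6.17 and 6.15 in control and 5.81, 5.84 and 5.87 in treated samples (exact permutation test, p = 0.1, the smallest possible, adjusted p = 0.36). All other peaks went the same way, from 6.30 ± 0.0559 to 6.14 ± 0.0351 in median. As a mean of log2 values, 3' end peaks went from 2.65 ± 0.01 to 2.59 ± 0.00 and all other peaks from 2.71 ± 0.01 to 2.66 ± 0.01, and the difference between these 2 shifts was not tested. The treated samples are the deeper ones here too.

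Genes of the TGF-β pathway were looked up next, because the cytokine acts through them. Ligand-bound receptors phosphorylate SMAD proteins, which enter the nucleus, while SMAD7 and the SKI family hold the pathway back. Of 36 genes listed, 22 had a region at a 3' end (61.1%, beside 27.1% of all genes), with 31 regions and 7 called in all 6 samples. At p below 0.05 without adjustment, 0 of the 7 were higher and 2 lower, beside 1.96% and 2.22% of all regions, and both lay at Smad1, a transducer of BMP signals. The 7 regions had a median log2 fold change of -0.14, where that of all shared 3' end regions was 0.00. Gene length and the number of annotated ends were not matched between this or any later list and all genes. For each later list too, the shares to compare with are 27.1% of all genes and 1.96% and 2.22% of all regions. For regions called in all treated and no control samples, that share is 0.946%.

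The region in the 3' UTR of Smad1, 582 bp before the end, had 36, 31 and 34 reads in control and 29, 28 and 28 in TGF-β1-treated samples, without overlap, and a log2 fold change of -0.47. The other, 250 bp downstream of a shorter transcript (chr8:81878803-81879278, 17 CpGs), had 38, 36 and 61 against 35, 40 and 44, and a log2 fold change of -0.37 ± 0.18 (SE). Its groups overlapped in raw pileup but not after centring on the sample medians. Neither Smad1 region passed adjustment (limma, adjusted p = 0.999 each). For the co-receptor Tgfbr3 (betaglycan), the 3' UTR region had 42, 49 and 53 reads against 51, 42 and 60. Smad7 had 30, 27 and 32 against 29, 35 and 32 at 1414 bp downstream. Acvr1, a type I receptor, had 28, 24 and 26 against 24, 22 and 30 at 6 bp before the end. The type II receptor Bmpr2 had 18, 19 and 22 against 19, 21 and 24, and Zfyve9, the SMAD anchor SARA, had 15, 15 and 19 against 16, 15 and 25. In these 5 the groups overlapped.

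Collagens, the fibre and network proteins of the matrix, had a region at 16 of 41 genes (39.0%), with 23 regions of which 8 were called in all 6 samples and 0 passed p below 0.05. Col22a1 had the widest difference, with 34, 28 and 24 reads against 50, 38 and 41 and a log2 fold change of 0.37 ± 0.20 (SE; limma, adjusted p = 0.999). Its groups overlapped after centring. Col5a1, a chain of type V collagen, had a 3' UTR region with a peak in 1 control sample (13 reads) and 3 treated samples (14, 18 and 27 reads). Col8a2 had 14, 43 and 55 against 40, 52 and 33, and Col2a1 28, 32 and 40 against 34, 45 and 33. For the basement membrane chain Col4a1, the 3' UTR region was called in 2 samples of each group with 18 reads in both controls and 23 in both treated samples.

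Other matrix and profibrotic genes had a region at 17 of 38 genes found in the annotation (44.7%), with 6 of 22 regions called in all samples and 0 at p below 0.05. Beside Timp2, the integrin chain Itgav had a downstream region in 3 control samples (14, 12 and 18 reads) and 1 treated sample (16 reads). Itgb3 had 27, 25 and 30 reads against 27, 35 and 34, and Fbn1, for the microfibril protein fibrillin-1, had 28, 18 and 28 against 35, 26 and 39.

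The contractile genes had regions at 7 of 19 genes (36.8%, beside 27.1% of all genes), with 3 of 12 regions in all samples. Of these 3, 0 were higher and 1 was lower at p below 0.05, beside 1.96% and 2.22% of all regions. That one was 23 bp downstream of a transcript of Cald1, the actin-binding caldesmon, with 22, 28 and 25 reads against 20, 19 and 24 and a log2 fold change of -0.47 ± 0.21 (SE; limma, adjusted p = 0.999). Its groups overlapped in raw pileup but not after centring. Another Cald1 region, 92 bp downstream, was also called in all 6 samples, with overlap before and after centring. It had 19 ± 3 reads in control and 20 ± 1.73 in treated samples (SD, n = 3 each). Des, for the intermediate filament desmin, had a downstream region in 2 treated samples only, at 22 and 23 reads. A second Des region, 1009 bp downstream, was called in 2 samples of each group, with 34 and 44 reads in control and 25 and 37 in treated samples. Mkl2, a coactivator of serum response factor, had 15, 21 and 14 against 27, 22 and 24, with overlap after centring.

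Mesangial and pericyte genes had regions at 6 of 20 genes, 7 in all, of which 3 were called in every sample. Pdgfra, a receptor for platelet-derived growth factor, was called in the treated samples only, at 16, 15 and 16 reads. Ednra, the endothelin receptor, had 52, 55 and 49 against 59, 53 and 59 reads, Pdgfb had 24, 22 and 34 against 37, 29 and 33, and Notch3 had 22, 12 and 10 against 22, 19 and 22. Genes of other kidney cell types had regions at 8 of 24 genes (33.3%), with 3 of 12 in all samples and 0 at p below 0.05. The endothelial cadherin Cdh5 had 22, 49 and 54 against 57, 48 and 49 reads, and the epithelial genes Cdh1 and Epcam had 24, 43 and 42 against 37, 42 and 33 and 30, 38 and 37 against 38, 34 and 43.

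The machinery that makes 3' ends was looked up as well. Of 23 cleavage and polyadenylation factors, 7 had a region (30.4%, beside 27.1% of all genes), and 1 of the 9 regions was called in every sample. It lay 1963 bp downstream of Papolb, a testis poly(A) polymerase, with 17, 20 and 16 reads against 27, 29 and 26 and a log2 fold change of 0.41 ± 0.22 (SE; limma, adjusted p = 0.999). There the groups overlapped after centring. Cstf1, a subunit of the cleavage stimulation factor, had a region 1523 bp downstream in 2 treated samples only, at 24 and 28 reads. Its other region, 68 bp past the end, had 20 and 23 reads in 2 control samples and 30, 32 and 25 in the treated samples.

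DNA methylation enzymes and readers had a region at 10 of 21 genes (47.6%, beside 27.1% of all genes), with 3 of 10 called in all samples. Of these 3, 1 was higher at p below 0.05, beside 1.96% of all regions. Dnmt3a, which sets new methylation, had 18, 25 and 29 reads in its 3' UTR in control and 41, 29 and 49 in treated samples (chr12:3912715-3913173, 14 CpGs). The log2 fold change was 0.50 ± 0.21 (SE; limma, adjusted p = 0.999), and control replicate 3 and treated replicate 2 shared the value of 29. Uhrf2 had 15, 15 and 23 against 26, 27 and 22, and Tet2, an enzyme that oxidises methylcytosine, 20, 13 and 24 against 16, 28 and 21.

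Imprinted genes had regions at 14 of 47 genes (29.8%), with 4 of 19 called in all samples and 0 at p below 0.05. A single region was called in the treated group only, beside 0.946% of all regions. That was Rasgrf1, an exchange factor for Ras, with 18, 15 and 25 reads in its 3' UTR. The 3' UTR of Dlk1 was called in 1 control sample (23 reads) and 3 treated samples (18, 26 and 33), and that of the cell cycle inhibitor Cdkn1c in 3 control samples (15, 17 and 24) and 1 treated sample (17). Ppp1r9a had a region 49 bp downstream of a short transcript in 1 control sample (29 reads) and 3 treated samples (28, 27 and 21). These 4 were named for such differences. By the rule of at least 2 samples, 4 of the 19 regions leaned to TGF-β1 and 2 to control, beside 7.84% and 3.13% of all regions.

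The numbered Zfp genes, which encode zinc finger proteins, had regions at 99 of 333 genes (29.7%), with 34 of 135 in all samples, of which 0 were higher and 1 was lower at p below 0.05, beside 1.96% and 2.22% of all regions. Zfp663 had 28 reads in 1 control sample and 34, 30 and 28 in treated samples, whereas Zfp236 had 25 and 37 reads in 2 control samples only. Zfp532 was called in 1 control sample at 25 reads and in the treated samples at 44, 27 and 34. Zfp652 was called in 2 treated samples only, at 23 and 21 reads. These 4 were named for such differences. By the rule of at least 2 samples, 10 of the 135 regions leaned to TGF-β1 and 4 to control, beside 7.84% and 3.13% of all regions.

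Hox genes had regions at 9 of 39 genes (23.1%), with 4 of 13 in all samples and 0 at p below 0.05. Hoxc8 had 22, 31 and 25 reads against 35, 46 and 34, without overlap in raw pileup but with overlap after centring, Hoxc9 28, 18 and 31 against 26, 36 and 38, and Hoxc10 17, 20 and 32 against 24, 38 and 25. Hoxa3 had a region called in 1 control sample (17 reads) and 3 treated samples (25, 17 and 23). Its other region, 490 bp past the end, was called in all 6 samples with overlapping groups. It had 26.3 ± 3.51 reads in control and 25.3 ± 5.03 in treated samples (SD, n = 3 each). Notch, Wnt and Fzd genes had regions at 20 of 49 genes (40.8%), with 5 of 22 in all samples and 0 at p below 0.05. The ligand Wnt9b was called in treated samples only, at 16, 15 and 15 reads, Wnt3 in 2 control samples only, at 28 and 25, and Wnt2b in 1 control sample (15) and 3 treated samples (17, 20 and 28). Jag2, a Notch ligand, had 19, 30 and 25 against 28, 20 and 32.

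The last lists were those the study itself drew from these cells, so their direction is not independent evidence. Of 31 annotated genes with both a methylation and an expression change in the study, 12 had a 3' end region (38.7%), with 2 of 16 regions called in all samples. Gpr124, an adhesion receptor, had a region 1219 bp downstream with 18, 20 and 29 reads against 30, 40 and 36, a log2 fold change of 0.46 ± 0.21 (SE; limma, unadjusted p = 0.0340, adjusted p = 0.999), and it also lay in an intron or non-coding exon of Brf2. Ahdc1 had 19, 13 and 19 against 23, 22 and 21, and the groups overlapped after centring both here and at Gpr124. For Gja4, the gap junction gene for connexin 37, the 3' UTR held 1 region, called in 2 samples of each group with 17 and 24 reads against 17 and 20. Klf7, a transcription factor gene, had 0 regions at its 3' ends, which for a peak list says only that nothing passed the threshold.

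Of 82 annotated genes that the study predicted as targets of changed microRNAs through their 3' UTR, 48 had a 3' end region (58.5%, beside 27.1% of all genes), with 15 of 72 regions called in all samples and 0 at p below 0.05. Their median log2 fold change was -0.08. By the rule of at least 2 samples, 3 of the 72 regions leaned to TGF-β1, at 4921524J17Rik, Atoh8 and Onecut2, and 1 to control, at Ccdc6, smaller shares than the 7.84% and 3.13% of all regions. Ccdc6 had 26 and 27 reads in 2 control samples and no peak in a treated one, and Onecut2 had 14 reads in 1 control sample and 18, 15 and 22 in treated samples. The region downstream of 4921524J17Rik had 24 reads in 1 control sample and 28, 30 and 31 in treated samples, and Atoh8 had 15 and 20 reads in 2 treated samples only. MicroRNA sites themselves were not looked for, and 3' UTR length was not matched between this list and all genes.

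The last measure was the position among neighbouring genes. Where the ends of a pair of genes on opposite strands ran toward each other, the shared 3' end sequence held 45.2 to 68.8 peaks per Mb among the 6 samples, against 49.6 to 67.1 in the rest of the 3' end sequence, with the shared sequence lower in 5 of 6 samples. Between 736 and 952 downstream peaks per sample lay inside the span of a protein-coding transcript. At ends annotated as complete, 2929 to 4029 peaks per sample remained of 3269 to 4444.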

How the data were processed

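The 6 deposited peak lists were used (3 control, 3 TGF-β1). The authors mapped reads to mm9 with BWA, kept unique reads counted 1 time per starting position, and called peaks in each sample separately with MACS2 2.1.0.20150731 at a q-value cutoff of 0.01 without input. Per the file headers, the deposited pileup is a signal in extended reads, not scaled to depth, the fold enrichment is its ratio to the local background, and p- and q-values are given as -log10. No read counts were used, so the study's count test was replaced by limma 3.58.1 (R 4.3.3; lmFit, eBayes with trend) on log2 pileup. It was tested on simulated data of 41744 regions in all, where 196 of 200 regions changed by a log2 of 3 were recovered, with 1 false call. Recovery of smaller changes, or of regions that drop below the calling threshold, was not tested.

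Summits were placed on GENCODE vM1 transcripts (NCBIM37, the assembly of mm9) in the order coding sequence, within 2000 bp of a start, 3' UTR, 2000 bp downstream, intron, intergenic. The gene named is that of the nearest transcript end. Density is summits per Mb of an element, without a correction for mappability. Pileups of a region are the highest among all its peaks in a sample, whether or not these are 3' end peaks. Groups were compared by exact permutation of sample values over 20 assignments, and elements by exact sign-flip over 6 samples (Python 3.11.15, scipy 1.17.1), with Benjamini-Hochberg adjustment in each family.

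The members, the 14 gene lists and the rule for named genes were chosen with earlier results of these data known. Named were the 4 smallest limma p in each direction, the 4 highest regions called in 1 group only in each direction, the 4 highest per 1000000 reads, the 2 genes with the most regions, up to 4 genes per list, and Klf7 and Gja4. Named with their values beyond that rule, and chosen after the values were seen, were further regions of Smad1, Timp2, Cstf1, Des, Cald1, Hoxa3, Bmpr2, Zfyve9 and Col4a1. Alternatives were stricter peaks (-log10 q or fold enrichment from 5 up), 1000 bp downstream, a 100 bp overlap and regions whose every peak was a 3' end peak. Others were division by reads, other measures in limma, each sample left out in turn, and a block for the replicate number. Chosen after seeing the data were complete ends only and leaving out downstream peaks inside a transcript. Depth was 9407103 to 13291419 reads per sample. Peaks on chromosomes X, Y and unplaced sequence were left out, as were read-level and other experiments of the study.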

Additional observations from a re-analysis of the deposited data

How the results depend on the processing

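The number of 3' end peaks turned from higher to lower in TGF-β1-treated samples when divided by reads, at a difference of -30.0 peaks per 1000000 reads (353 in control, 323 treated; exact permutation test, p = 0.3). Their share of all peaks turned to a difference of -0.0278 percentage points with peaks of 5-fold enrichment or more and ranged from -0.0437 to 0.0716 when 1 sample was left out, where it was negative only without TGF-β1 replicate 3.

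Of regions called in 1 group only, peaks of 5-fold enrichment or more left 30 for TGF-β1 and 27 for control, and 1000 bp downstream left 11 for control. Leaving out 1 sample relaxes the rule by its construction and gave 116 to 166 for TGF-β1 and 35 to 84 for control. The count at an unadjusted p below 0.05 was 61 in all. It became 100 after division by reads (5 higher, 95 lower), which moved the median log2 fold change to -0.09 at 3' ends and -0.10 over all regions, and 173 with regions called in at least 3 samples, where 4423 were tested. It ranged from 43 to 96 when 1 sample was left out, the highest without control replicate 1. The count past the study's thresholds stayed at 0 in every alternative run.

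The lower fold enrichment of 3' end peaks against the 4 other elements kept its direction at a higher -log10 q or fold enrichment, 1000 bp downstream, complete ends only and without each sample in turn. It was not rerun without downstream peaks inside a transcript. With 1 sample left out, the difference was -0.312 to -0.276 against coding sequence, -0.0882 to -0.0523 against transcript starts, -0.0929 to -0.0696 against introns and -0.318 to -0.291 against intergenic sequence, with p = 0.0625, the smallest that 5 samples allow (exact sign-flip permutation test). Against transcript starts it was -0.0831 with peaks of 5-fold enrichment or more (p = 0.125) and -0.0695 with complete ends only (p = 0.0625, same exact test). The cause of these changes was not tested.

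The labels do not say whether same-numbered control and treated samples were handled together. Their deviations from the group means correlated at -0.0320, 0.0348 and -0.157 over 1770 regions. With the replicate number as a block, limma gave 27 higher and 23 lower at an unadjusted p below 0.05 and 0 past the thresholds. The exact sign-flip test of the 3 pairs gave p = 0.25 or more for each per-sample result, the smallest it allows. Depth limits the group comparison, since a region must pass the threshold in every sample to be compared.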
